A study of Mus musculus with 9 samples.

Results

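The genes described here are 8 mouse genes for interferon-inducible nuclear proteins, chosen by name: 4 of the PYHIN family (Ifi203, Ifi204, Ifi205 and Mndal), 3 of the SP100 family (Sp100, Sp110 and Sp140), and Pml. They are 8 of the 55487 genes of the count table. These genes, and the gene lists used below, were chosen with earlier results of these data known. Counts of them that rose are therefore descriptions. Their RNA was measured by sequencing in B16F10, a mouse melanoma cell line, after 6 h in 1 of 3 conditions with 3 libraries each: interferon gamma (IFNγ) at 50 ng/mL plus FK866 at 50 nM, IFNγ at 50 ng/mL alone, and media with neither agent. FK866 is an inhibitor of NAMPT, which limits the rate of NAD salvage. No group received FK866 alone. Every library title carries the word Control with the number 3, 4 or 5, also where IFNγ was given, and what the numbers stand for is not stated. Separate cultures are not stated either, so p-values measure the spread between these libraries, which may be technical.

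PYHIN proteins carry a pyrin domain, a HIN domain that binds DNA, or both, and several of them sense DNA from pathogens or damaged cells. In the mouse their genes lie side by side in a cluster that differs between strains. PML is the scaffold of the nuclear bodies named after it, where it is joined to SUMO and recruits SP100, DAXX and other chromatin and antiviral factors. SP100, SP110 and SP140 share domains that bind DNA and chromatin. IFNγ acts through its receptor and the Janus kinases on DNA elements called GAS, and through IRF1 and other interferon regulatory factors, which bind elements called ISRE. FK866 was added to IFNγ in the study to see what NAMPT inhibition does to the response.

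By the GRCm38 annotation (GENCODE M21), the 4 PYHIN genes lie on the minus strand of chromosome 1. Ifi204 (ENSMUSG00000073489) is at chr1:173747293-173766943 and Mndal (ENSMUSG00000090272) at chr1:173849126-173942491. Ifi203 (ENSMUSG00000039997) is at chr1:173920407-173942672 and Ifi205 (ENSMUSG00000054203) at chr1:174011998-174031810. The SP100 family genes lie elsewhere on the same chromosome. Sp110 (ENSMUSG00000070034) is at chr1:85576899-85598817 on the minus strand. Sp140 (ENSMUSG00000070031) is at chr1:85600378-85645037 and Sp100 (ENSMUSG00000026222) at chr1:85649988-85709998, both on the plus strand. Pml (ENSMUSG00000036986) stands alone at chr9:58218076-58249786 on the minus strand. All 8 genes are annotated as protein coding.

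The bases before the gene starts show what the PYHIN genes share. The RefSeq promoter table (GRCm38.p6) had entries for 3 of the 4 PYHIN members, for all 4 of Sp100, Sp110, Sp140 and Pml, and for 9 of 10 other PYHIN genes of the table. Both strands of the 250 bases before each start were searched for GAAANNGAAA, the core of an ISRE, and for TTCNNNGAA, the form of a GAS element. The ISRE core was found in 3 of 3 PYHIN members with an entry and in 6 of 9 other PYHIN genes, against 3.46% of all 27025 gene symbols in the table (2.98% of its 32851 windows). It was in no window of Sp100, Sp110, Sp140 or Pml. The GAS form was in no window of the members and in that of 1 other PYHIN gene, Ifi202b, against 8.13% of all symbols (7.02% of windows). No match says only that these letters are not in this window.

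The windows below are read 5′ to 3′ on the gene's own strand and end at the base before the start, with the ISRE core in capitals. The first pair are members that were high with IFNγ, and Ifi205 is the member with almost no reads. Ifi203 and Mndal have 2 starts each in the table. The other window of Ifi203 has no match, and that of Mndal has a core on the other strand, TTTCTCTTTC as read on the gene's strand, 54 bases before its start. Ifi205 is shown at 250 bases because its match lies 134 bases before the start.
Ifi203, chr1:173942493-173942592, minus strand: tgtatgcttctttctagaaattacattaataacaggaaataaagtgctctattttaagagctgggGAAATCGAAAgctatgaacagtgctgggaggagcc
Mndal, chr1:173880188-173880287, minus strand: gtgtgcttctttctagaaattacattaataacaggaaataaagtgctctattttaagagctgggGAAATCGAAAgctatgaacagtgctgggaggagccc
Ifi205, chr1:174031756-174032005, minus strand: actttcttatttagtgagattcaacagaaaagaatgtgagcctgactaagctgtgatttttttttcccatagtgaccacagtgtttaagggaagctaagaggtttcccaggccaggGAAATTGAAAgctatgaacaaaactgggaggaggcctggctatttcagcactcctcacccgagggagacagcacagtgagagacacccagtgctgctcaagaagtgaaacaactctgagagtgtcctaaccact

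The next windows belong to neighbours in the cluster. Ifi211 and Ifi207 had reads in every library with IFNγ, while Ifi214 and Ifi209 had at most a few reads or none.
Ifi211, chr1:173913047-173913146, minus strand: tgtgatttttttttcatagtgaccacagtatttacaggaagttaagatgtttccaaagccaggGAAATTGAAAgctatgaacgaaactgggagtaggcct
Ifi207, chr1:173741810-173741909, minus strand: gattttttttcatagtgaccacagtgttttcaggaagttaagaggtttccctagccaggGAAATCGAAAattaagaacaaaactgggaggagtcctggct
Ifi214, chr1:173535958-173536057, minus strand: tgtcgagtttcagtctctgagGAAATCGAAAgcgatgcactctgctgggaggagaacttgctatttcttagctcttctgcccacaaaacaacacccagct
Ifi209, chr1:173630759-173630858, plus strand: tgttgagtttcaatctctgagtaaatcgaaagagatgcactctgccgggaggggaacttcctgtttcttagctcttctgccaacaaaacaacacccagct

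The exact letters of the core in Ifi203, GAAATCGAAA, were then looked for in all windows, so Ifi203 holds them by construction. They were in 13 of 32851 windows (0.0396%), and 7 of those 13 belong to PYHIN genes: Ifi203, Mndal, Ifi206, Ifi207, Ifi208, Ifi213 and Ifi214. In Ifi203 and Mndal the match starts 35 and 36 bases before 1 of the 2 RefSeq starts. In neither gene is that the start of the GENCODE gene model given above. Ifi205 and Ifi211 hold the core with the substitution C6T, counted from 1 at the 5′ end of GAAATCGAAA with the letter of that motif first. The nearest 10 bases in Ifi209 carry the substitution G1T and so fall outside the core. The longer run GAAATNGAAAGCTATGAAC was in 7 windows (0.0213%), and all 7 were PYHIN genes: Ifi203, Ifi205, Ifi206, Ifi208, Ifi211, Ifi213 and Mndal. The 250-base windows of Ifi203 and Mndal share an identical run of 96 bases. These genes are neighbouring copies of each other, so their matches are not independent, and the match does not order them by level: Ifi213 and Ifi214 hold it and had 1 and 0 reads over the 3 libraries with IFNγ plus FK866, 2 and 3 with IFNγ, and 0 in media.

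The sequences of these genes are shared with other genes to an unequal extent. Of all 50-base windows along the annotated transcripts, 1.34% of those of Pml and 5.92% of those of Sp100 also occur in another gene, on either strand. The share was 12.4% for Ifi203, 18.6% for Ifi205, 19.6% for Mndal and 20% for Ifi204, mostly with each other, with Ifi211 and with Ifi203-ps. It was 42.3% for Sp110 and 57.3% for Sp140, whose counts are therefore the least certain of the 8. Mndal and Ifi203 also share 37 exon bases on the same strand, since the Mndal gene model begins beside 1 of the starts of Ifi203. An antisense gene, Gm17017, overlaps 877 exon bases of Sp140 and had 7 reads with IFNγ plus FK866, 2 with IFNγ and 0 in media. Another, G530012D18Rik, overlaps 392 exon bases of Sp110 and had 0 reads in each group. Smaller antisense overlaps were 105 bases of Pml with Mir6385 and 4 of Sp140 with Gm10552. On the same strand, Gm38050 overlaps 118 exon bases of Mndal, and n-R5s215 overlaps 104 of Sp100.

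Library totals ran from 15317003 to 18466972 counts. The response check behaved alike in both IFNγ groups: Irf1, which encodes a transcription factor that IFNγ induces, averaged 747 ± 42.4 CPM (counts scaled to library size with TMM factors) with IFNγ plus FK866, 787 ± 34.2 with IFNγ and 17.3 ± 3.31 in media (SD, n = 3 each). The 12 melanocyte lineage markers summed to 15849 to 18037 CPM with IFNγ plus FK866, 16393 to 18162 with IFNγ and 17851 to 20139 in media. Of these 12, Mitf fell with IFNγ (377 ± 30.9 CPM with IFNγ plus FK866, 335 ± 60.5 with IFNγ and 807 ± 68.4 in media, adjusted p for IFNγ = 0.000773), and 5 fell with the number as a block in the fit, against 0.499% of all genes tested that fell without the block and 6.14% with it. Of 18 leukocyte markers, 10 were at 0 in all 9 libraries, among them Ptprc, Adgre1, Itgam and Csf1r, and the list summed to 6.42 to 11.4 CPM with IFNγ plus FK866, 6.04 to 13.3 with IFNγ and 6.39 to 14 in media. The ranges of these sums overlapped between the 3 groups. Cd68 had the highest level on the leukocyte list, with 7.35 ± 2.7 CPM with IFNγ plus FK866, 6.27 ± 3.34 with IFNγ and 7.78 ± 3.88 in media. Of 12 fibroblast, endothelial and keratinocyte markers, 5 were at 0 in all libraries, and the list summed to 4.19 to 10.2 CPM with IFNγ plus FK866, 3.49 to 9.14 with IFNγ and 7.46 to 14.8 in media. Of the 2 tested on that list, Col1a2 fell with IFNγ. It averaged 2.44 ± 0.483 CPM with IFNγ plus FK866, 1.68 ± 0.328 with IFNγ and 5.45 ± 1.24 in media. In bulk RNA, more cells expressing a gene and more RNA per cell cannot be told apart.

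Set against media, IFNγ alone gives the response of these genes to the cytokine. Of the 8 genes, 7 passed the filter on low counts, and 6 of them rose with IFNγ: Ifi203, Ifi204, Mndal, Sp100, Sp110 and Pml. Across all 15237 genes tested, 2.8% rose at an adjusted p below 0.05 (edgeR quasi-likelihood F test, Benjamini-Hochberg over all genes tested). None of the 8 fell, against 0.499% of all genes. The 5 besides Pml were close to absent in media, with 8, 2, 1, 5 and 2 reads over the media group in the order above. They passed the filter through the libraries with IFNγ, so being tested and having risen were not independent. Pml was expressed in all groups. For the same 6 genes every IFNγ library lay above every media library, which held for 7.97% of all genes tested. With the number as a block in the fit, Sp140 was called too, which made 7 of 7, against 8.12% of all genes.

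**Figure D1:**
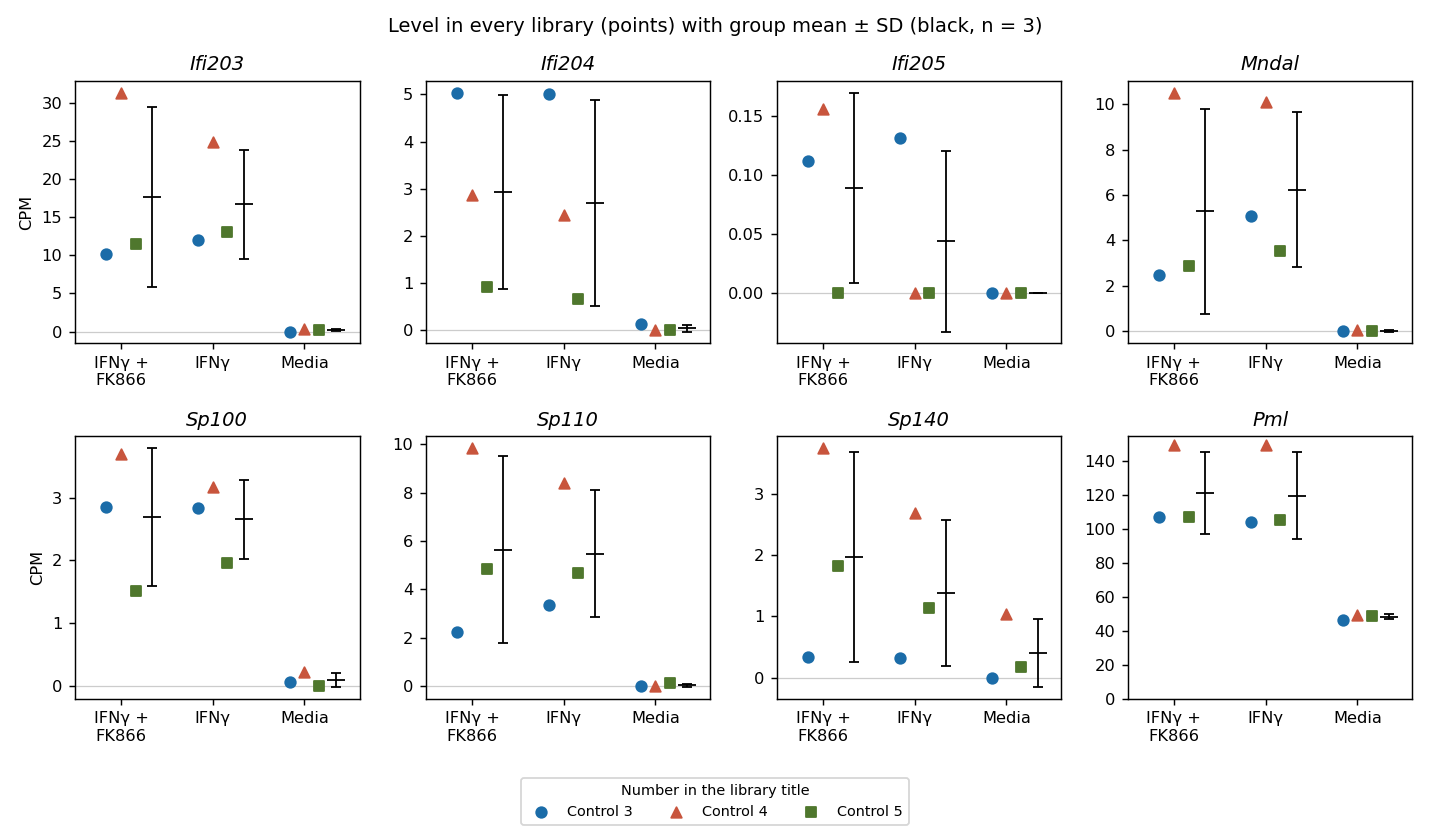
CPM of the 8 genes in every library, 1 panel per gene with its own linear axis, in IFNγ plus FK866, IFNγ and media from left to right. Point shapes give the number in the library title and black bars the mean ± SD (n = 3). Both IFNγ groups stood above media without overlap in 6 panels, Sp140 overlapped, and Ifi205 was at or near 0.

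Ifi203, a mouse PYHIN gene whose product is nuclear, gave the most reads of the cluster. It had 10.2, 31.3 and 11.5 CPM in the IFNγ plus FK866 libraries numbered 3, 4 and 5, 12, 24.9 and 13.1 CPM in the IFNγ libraries, and 0, 0.274 and 0.179 CPM in media. Number 4 was the high library in both IFNγ groups, and neither group overlapped media. The ratio to media was 107 for IFNγ (95% counting interval 53.9 to 248), from 812 reads against 8. The fitted log2 fold change was 6.67 with a standard error (SE) of 0.75 (adjusted p = 0.000648), and 7.39 without media number 4.

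Mndal encodes a PYHIN protein related to human MNDA. In the same order of numbers it had 2.46, 10.5 and 2.88 CPM with IFNγ plus FK866, 5.07, 10.1 and 3.55 CPM with IFNγ, and 0, 0.0548 and 0 CPM in media. Media held 1 read in all, so the ratio of 318 for IFNγ has a counting interval from 56.7 to 12613. Its log2 fold change was 7.86 (SE 1.06, adjusted p = 0.00233), a value that depends on the prior count of the fit, as for Ifi204 and Sp110. Without media number 4, which held that 1 read, it was 9.71. Number 4 was again the high library in both IFNγ groups.

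Ifi204 encodes p204, a DNA sensor that signals through STING and is often set beside human IFI16. It had 5.03, 2.86 and 0.917 CPM with IFNγ plus FK866, 5, 2.44 and 0.652 CPM with IFNγ, and 0.126, 0 and 0 CPM in media. Here number 3 was the high library and number 5 the low one in both IFNγ groups, with no overlap with media. The ratio to media was 66.7 for IFNγ (counting interval 18.1 to 557, 127 reads against 2), and the log2 fold change was 5.84 (SE 1.21, adjusted p = 0.0293). In fits without the number as a block, this call was the least firm of the 6. It was lost in 6 of the 9 fits that leave out 1 library (IFNγ plus FK866 number 4, IFNγ number 3 or 4, or media number 3, 4 or 5), where the highest adjusted p was 0.138 (without media number 4), and it was also lost with limma-voom (adjusted p = 0.119). The log2 fold change was 8.52 without media number 3, which held both media reads, and 5.05 without IFNγ number 3. With the number as a block its adjusted p was 1.33e-07, and blocked fits that left out number 3, 4 or 5 also called it.

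Ifi205, whose product is known from mouse macrophages as a regulator of the inflammasome adaptor ASC, was barely detected. It had 2, 3 and 0 reads with IFNγ plus FK866, 2, 0 and 0 reads with IFNγ, and none in media, where a count of 0 allows up to 3 reads. It failed the filter on low counts, and a difference between groups was not detectable at this depth.

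Sp100, a constituent of PML bodies that is itself joined to SUMO, had 2.85, 3.69 and 1.51 CPM with IFNγ plus FK866, 2.83, 3.17 and 1.95 CPM with IFNγ, and 0.0628, 0.219 and 0 CPM in media. The IFNγ groups stood above media in every library, and their own spread was the narrowest of the SP100 family. The ratio to media was 26.9 for IFNγ (counting interval 11.2 to 84.2), with a log2 fold change of 4.67 (SE 0.68, adjusted p = 0.00391), and 6.12 without media number 4.

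Sp110, first described in mice as Ipr1, a candidate gene for resistance to tuberculosis, had 2.23, 9.83 and 4.85 CPM with IFNγ plus FK866, 3.36, 8.41 and 4.68 CPM with IFNγ, and 0, 0 and 0.119 CPM in media. Numbers 4, 5 and 3 ran from high to low in both IFNγ groups. The ratio to media was 141 for IFNγ (counting interval 38.6 to 1168, 268 reads against 2), with a log2 fold change of 6.88 (SE 0.95, adjusted p = 0.00264). Without media number 5, which held both media reads, it was 9.54.

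Sp140, a chromatin reader best known from immune cells, was the one member of its family that the fit without the block did not call. Its levels were 0.335, 3.74 and 1.83 CPM with IFNγ plus FK866, 0.329, 2.68 and 1.13 CPM with IFNγ, and 0, 1.04 and 0.179 CPM in media. Media number 4 was higher than IFNγ number 3, so the groups overlapped, although within each number the IFNγ library was above its media library. The log2 fold change of IFNγ over media was 1.71 (SE 1.15, adjusted p = 0.878) without the block and 1.87 (95% interval 0.88 to 2.86, adjusted p = 0.00865) with it. Leaving out all libraries numbered 4 or 5 from the blocked fit ended that call, with log2 fold changes of 3.00 (adjusted p = 0.0527) and 1.65 (adjusted p = 0.0818).

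Pml was the one gene of the 8 that was well expressed in media. It had 107, 149 and 107 CPM with IFNγ plus FK866, 104, 149 and 105 CPM with IFNγ, and 46.5, 49.2 and 48.7 CPM in media. The 3 media libraries were nearly level, and number 4 stood out in both IFNγ groups. Within numbers 3, 4 and 5 the IFNγ level was 2.25, 3.02 and 2.15 times the media level. The log2 fold change was 1.31 (SE 0.17, adjusted p = 0.0021).

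Set side by side per kb of exon, Pml was the most abundant, at a mean of 21.7 CPM per kb with IFNγ plus FK866, 21.4 with IFNγ and 8.64 in media. With IFNγ, Ifi203 (2.48 CPM per kb), Mndal (1.72), Sp110 (0.808), Ifi204 (0.757), Sp140 (0.414) and Sp100 (0.351) followed, each overlapping the next in its libraries, and Ifi205 (0.0105) lay below them all. The order of the means was the same with IFNγ plus FK866. All annotated exon bases were counted, though the share of sequence found in other genes ran from 1.34% for Pml to 57.3% for Sp140. How far this alters the order was not tested. In media, Sp140 came after Pml at 0.122 CPM per kb, and the other 6 averaged at most 0.0225.

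**Figure D2:**
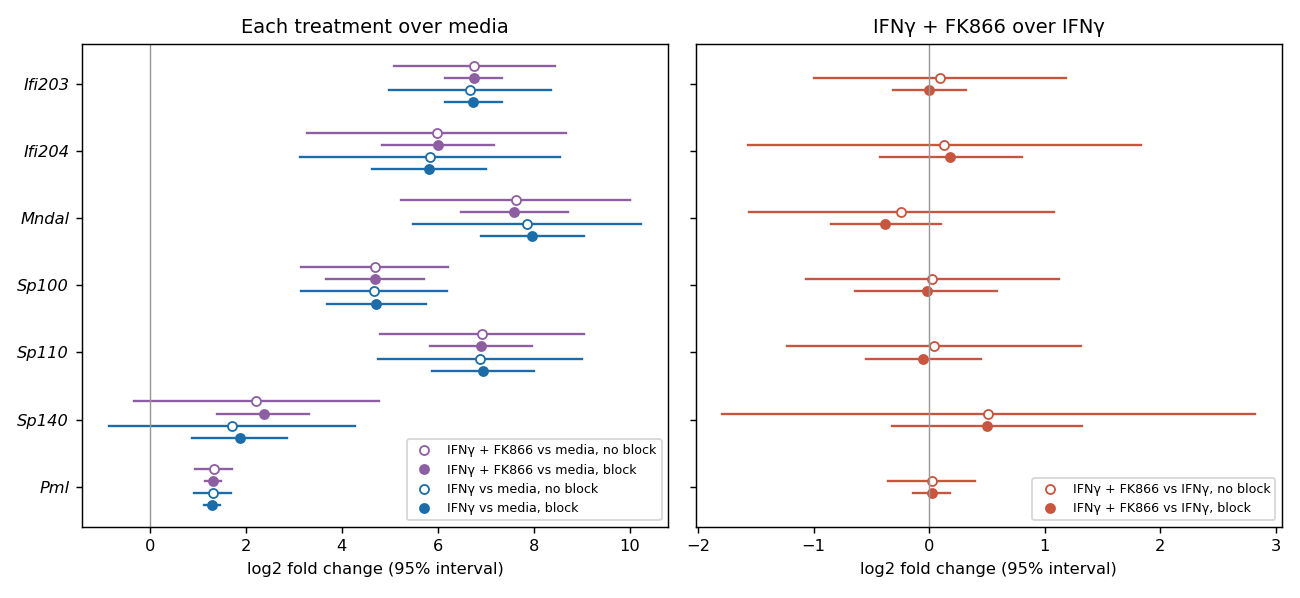
Log2 fold changes of the 7 tested genes with 95% intervals, IFNγ plus FK866 and IFNγ over media on the left, and IFNγ plus FK866 over IFNγ on the right, on linear axes of different range. Open points are the fit without the number as a block and filled points the fit with it. Intervals over media excluded 0 except for Sp140 without the block, and every interval on the right included 0.

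IFNγ plus FK866 against media asks the same of both agents together. It shares the media libraries with the comparison above, and called the same 6 genes, against 2.76% of all genes tested that rose and 0.597% that fell. The groups did not overlap for those 6, against 7.98% of all genes. Log2 fold changes were 6.76 for Ifi203, 5.98 for Ifi204, 7.62 for Mndal, 4.69 for Sp100, 6.92 for Sp110 and 1.33 for Pml, with adjusted p from 0.000614 to 0.0242. Sp140 had 2.22 (adjusted p = 0.594), and 2.37 with the block (adjusted p = 0.000724), where 8.53% of all genes rose. Without the block, the Ifi204 call was lost in 5 of the 9 fits that leave out 1 library (IFNγ plus FK866 number 3 or 4, or media number 3, 4 or 5). The highest adjusted p among them was 0.119 (without media number 4). The call was also lost with limma-voom (adjusted p = 0.0892), and it held in edgeR with the block (adjusted p = 6.25e-08). Leaving out 1 library moved the log2 fold change to 6.06 (IFNγ plus FK866 number 4) and 7.48 (media number 4) for Ifi203, and to 5.35 (IFNγ plus FK866 number 3) and 8.65 (media number 3) for Ifi204. For Mndal it moved to 6.63 (IFNγ plus FK866 number 4) and 9.47 (media number 4). It moved to 6.24 (IFNγ plus FK866 number 4) and 9.58 (media number 5) for Sp110, and to 6.15 (media number 4) for Sp100.

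IFNγ plus FK866 against IFNγ asks what NAMPT inhibition adds. Levels of all 8 genes overlapped between these groups, and 0 of 7 tested genes were called by edgeR with or without the block, by DESeq2 or by limma-voom. By each of these, 0 members also had an unadjusted p below 0.05, the smallest being 0.112 for Mndal with the block. Among all genes tested, 0% were called without the block and 0.0197% with it, so a count of 0 is at the level of all genes. Members without overlap numbered 0, against 1.94% of all genes higher and 1.39% lower.

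The intervals differ in what they leave room for. With the block, Pml differed by a log2 fold change of 0.02 (95% interval -0.14 to 0.18) and Ifi203 by 0.00 (-0.31 to 0.32), the narrowest of the 7. The intervals were -0.55 to 0.45 for Sp110, -0.64 to 0.59 for Sp100 and -0.43 to 0.80 for Ifi204. Mndal had -0.38 (-0.85 to 0.10), and within numbers 3, 4 and 5 its level with IFNγ plus FK866 was 0.485, 1.04 and 0.811 times that with IFNγ. Sp140 had 0.50 (-0.32 to 1.32), and its level was 1.02, 1.4 and 1.63 times that with IFNγ. For Ifi204 these ratios were 1, 1.17 and 1.41. Among its neighbours they were 1.02, 1.53 and 1.22 for Ifi211 and 0.959, 0.751 and 0.402 for Ifi207, neither of which was called. These wide intervals do not show that FK866 left the genes alike.

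The number in the library title went with the level of every tested member. In a fit of group plus number, the number term passed for 7 of 7 tested members, against 51.8% of all genes tested. Adjusted p values ran from 1.27e-06 for Ifi203 to 0.0435 for Sp100. Members other than Pml had at most 22 reads over the media group, so for them the term rests mostly on libraries with IFNγ. Pml had 46.5, 49.2 and 48.7 CPM in media numbers 3, 4 and 5, where number 4 did not stand out. Libraries numbered 4 were the highest in both IFNγ groups for Ifi203, Mndal, Sp100, Sp110, Sp140 and Pml, a pattern shown by 18% of all genes tested. Ifi204 had number 3 highest in both, as did 23.8% of all genes. Irf1 also had number 4 highest, but by little, and the number term did not pass for it (adjusted p = 0.278).

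**Figure D3:**
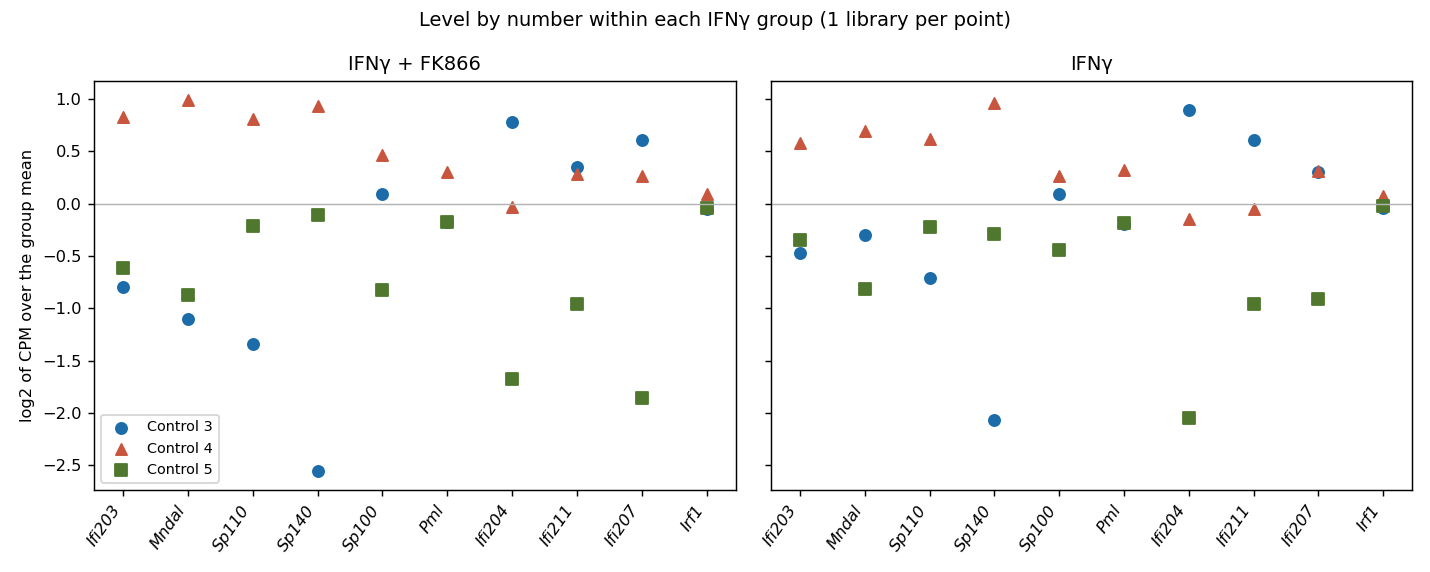
Log2 of each library's CPM over the mean of its group, for 7 members, 2 neighbouring PYHIN genes and Irf1, with IFNγ plus FK866 on the left and IFNγ on the right. Each point is 1 library and its shape gives the number. Number 4 was on top from Ifi203 to Pml, number 3 on top for Ifi204 and Ifi211, and Irf1 was nearly level.

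Genes of the same cluster followed different numbers. The log2 difference of number 4 over number 3, in a fit of all groups, was 1.36 for Ifi203 and 1.52 for Mndal, and -0.98 for Ifi204. Media held 8, 1 and 2 reads for these genes, so the values rest almost wholly on the libraries with IFNγ. Number 5 over number 3 was -2.71 for Ifi204 and 0.18 for Ifi203. Per kb of exon, Ifi203 was 1.08, 5.8 and 6.69 times as abundant as Ifi204 in the IFNγ plus FK866 libraries numbered 3, 4 and 5, and 1.28, 5.42 and 10.7 times in the IFNγ libraries. The 2 genes were thus near even in number 3 and far apart in numbers 4 and 5, in both groups. Sp140 differed most of the SP100 family, by 3.54 for number 4 over number 3 and 2.17 for number 5 over number 3. Whether the response to IFNγ itself differs between numbers was not tested, since each number has 1 library per condition.

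The other PYHIN genes extend the picture of the cluster. Ifi211 had 5.19, 4.94 and 2.1 CPM with IFNγ plus FK866, 5.07, 3.23 and 1.72 CPM with IFNγ, and no reads in media. Against a floor of 3 counts over the media group it was at least 71.3-fold higher with IFNγ plus FK866 and at least 55.7-fold higher with IFNγ. Of its 50-base windows 72.8% also occur in other PYHIN genes, so part of this signal may belong to them, which was not tested. Ifi207, with 7.29% of its windows shared, was at least 16.8-fold higher with IFNγ plus FK866 and at least 20.7-fold higher with IFNγ.

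Both rose in the fit against media (adjusted p for IFNγ 0.00274 for Ifi211 and 0.019 for Ifi207). Neither had a read in media, so they too passed the filter through the libraries with IFNγ. Ifi206 had 11 reads with IFNγ plus FK866 and 14 with IFNγ, Ifi208 had 7 with IFNγ plus FK866 and 11 with IFNγ, and neither had any in media. Aim2, the DNA sensor that assembles an inflammasome, had no read in any of the 9 libraries, nor had Ifi202b or Ifi209. Over all 14 PYHIN genes of the table the level summed to 25.1, 51.3 and 17.9 CPM with IFNγ plus FK866, 29.3, 42.9 and 20.5 CPM with IFNγ, and 0.126, 0.329 and 0.179 CPM in media. Ifi203 alone made up 40.8% to 64.5% of this sum in the libraries with IFNγ.

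**Figure D4:**
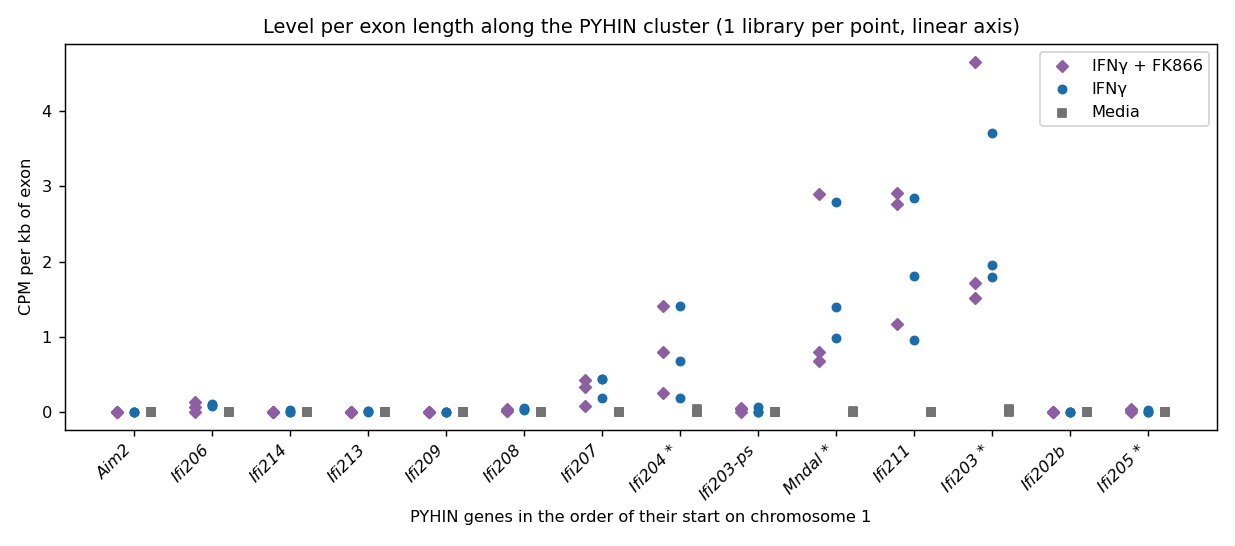
CPM per kb of exon for the 14 PYHIN genes in their order on chromosome 1, with IFNγ plus FK866, IFNγ and media from left to right within each gene, 1 point per library on a linear axis. Stars mark the 4 members. Libraries with IFNγ went past 1 CPM per kb in Ifi204, Mndal, Ifi211 and Ifi203, while Aim2, Ifi209 and Ifi202b stayed at 0.

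Among partners of the PML body, Daxx rose with IFNγ. It was 1 of 33 tested genes on that list, near the 2.8% of all genes that rose, none fell, and the median log2 fold change was 0.01, against -0.01 for all genes tested. Daxx, a histone chaperone recruited by PML, had 33.3 to 40.1 CPM with IFNγ plus FK866, 33.3 to 43.1 CPM with IFNγ and 17 to 21.1 CPM in media. Its log2 fold change with IFNγ was 0.99 (adjusted p = 0.00318). Isg20, an exonuclease, had 1.29 (adjusted p = 0.214) and Morc3, a chromatin ATPase, had 0.28 (adjusted p = 0.76). With the block 3 of 33 rose, Daxx, Morc3 and Hipk2, near the 8.12% of all genes that rose with it. Of the other genes with a SAND domain, Deaf1, Gmeb1 and Gmeb2 were tested and none was called, with log2 fold changes from -0.14 to 0.00.

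A list for cytosolic DNA sensing, the pathway that p204 feeds into, was also measured. It took in inflammasome and pyroptosis genes and other genes of the interferon response. The counts here are for the whole list, not for the STING pathway alone. Of 16 tested, 9 rose with IFNγ, against 2.8% of all genes, and none fell, with a median log2 fold change of 1.51, against -0.01 for all genes. With the block 11 rose, against 8.12% of all genes. Tmem173, which encodes STING, averaged 50 ± 1.95 CPM with IFNγ plus FK866, 52.9 ± 2.62 with IFNγ and 19.1 ± 0.852 in media (SD, n = 3 each; log2 fold change for IFNγ 1.47, adjusted p = 1.5e-05). Zbp1, a sensor of nucleic acids in the Z form, averaged 50.2 ± 16.5 CPM with IFNγ plus FK866, 47.8 ± 15.3 with IFNγ and 0.181 ± 0.115 in media. Cgas, which makes the messenger that activates STING, had a log2 fold change of 0.45 (adjusted p = 0.74). In numbers 3, 4 and 5 it had 19.2, 23 and 12.9 CPM with IFNγ plus FK866 and 19.4, 22.4 and 13.9 with IFNγ. Media had 11, 16.4 and 13.4 CPM, so IFNγ alone was above media within each number, by little in number 5.

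In IFNγ plus FK866 against IFNγ, no gene of the lists for the PML body, SAND domain genes and DNA sensing was called, with or without the block. Of all genes, 0.0197% were called with the block and 0% without it.

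Over the 9 libraries, the genes whose log2 CPM followed each member most closely were found by Pearson's r, as a description that rests largely on the step between media and IFNγ and on shared numbers. Nampt, the target of FK866, was closest to Ifi203 (r = 0.996). Plekhm1 was closest to Ifi204 (0.994), Zfp36 to Mndal (0.993), Mitd1 to Sp100 (0.995) and Atp8b4 to Sp110 (0.989). Lrrk2 was closest to Pml (0.994), with Gbp5 (0.993) and Mndal (0.991) after it. Sp140 had the loosest match, Proser3 (0.977).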

How the data were processed

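The deposited table gives raw counts of reads for each Ensembl gene in each library, as the values show (whole numbers with unequal totals). Per the submitters' processing notes, cutadapt 1.16, STAR 2.7.6a, DESeq2 1.30.1 and featureCounts 1.6.3 were named, and GRCm38 and mm10 as builds, and the labels state polyA RNA. The strand setting is not given in the sources used here, nor is the annotation release, so antisense reads cannot be told apart, and reads of near-identical copies may be split or dropped. The table was treated as bulk although the series text names a single-cell platform, since it holds no values per cell. Of 55487 gene IDs, 55141 matched a symbol and GENCODE M21.

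Tests used edgeR 4.0.16 in R 4.3.3 (TMM, filterByExpr, quasi-likelihood F test, all 9 libraries in 1 fit of group means) over 15237 genes, with Benjamini-Hochberg adjustment. The fit and its error were tested on simulated data with the same spread for all genes and no effect of the number. The changed genes in it were better expressed in media than the members other than Pml. It therefore does not give the error for changes in those members. Alternatives were a block for the number, other scalings, no filter, DESeq2 1.42.0, limma-voom 3.58.1, pairs of groups alone and single libraries left out. The numbers pair the libraries: deviations from group means correlated by 0.555 to 0.728 over 9 pairs with the same number in the titles, and by -0.477 to -0.112 over 18 pairs differing in number and group. Libraries within a group differed by more than sampling noise (lowest chi-square per degree of freedom 23.88). Intervals from counts, and floors, reflect counting error alone.

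The members and lists were chosen with earlier results of these data known. Named genes are the members, Irf1 and 1 gene not reported here, the 3 genes with the smallest p per list for IFNγ against media, other PYHIN and SP100 family genes, and the 3 closest genes per member by r (without predicted genes, Riken clones and pseudogenes). Cgas, Hipk2 and the leukocyte markers listed at 0 were named outside that rule after their values were seen. Genes that share sequence or exon bases with members were named from the annotation.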

Additional observations from a re-analysis of the deposited data

How the results depend on the processing

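Over all alternatives, 5 to 7 members rose in each comparison with media and 0 were called between IFNγ plus FK866 and IFNγ. Leaving out 1 library gave 5 to 6 in the comparisons with media. Apart from Ifi204 and Sp140, given in the report, the replicate block and the other alternatives changed no call of a member. All reversals were in log2 fold changes of IFNγ plus FK866 over IFNγ, none of them called, and the cause was not tested. Limma-voom gave -0.01 for Ifi203, -0.01 for Sp100 and -0.10 for Sp110. The replicate block gave -0.02 for Sp100 and -0.05 for Sp110. The block without 1 number, added after the data were seen, gave -0.02 for Sp100 without 3, -0.19 for Ifi203, -0.16 for Sp100 and -0.23 for Sp110 without 4, and -0.09 for Sp110 without 5. Without 1 library the values ranged from -0.62 to 0.49 for Ifi203, -0.49 to 0.93 for Ifi204, -1.22 to 0.3 for Mndal, -0.28 to 0.3 for Sp100, -0.63 to 0.49 for Sp110, -0.37 to 1.42 for Sp140 and -0.16 to 0.21 for Pml. Depth limits the members other than Pml, which had at most 22 reads each over the media group.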
